A study of Mus musculus with 23 samples.

Results

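Transcripts of 10 genes of the transforming growth factor β (TGF-β) and bone morphogenetic protein (BMP) pathways were followed in the pancreas of mice recovering from acute pancreatitis. The genes were taken by their symbols from the 18512 symbols counted in each mouse: the ligands *Tgfb1*, *Tgfb2*, *Tgfb3*, *Bmp4* and *Inhba*, the latent TGF-β binding proteins *Ltbp1* and *Ltbp2*, and the secreted modulators *Cilp*, *Bmper* and *Fstl1*. All 10 were listed in every mouse, and 8 had enough counts for testing between time points, the exceptions being *Inhba* and *Ltbp2*. The samples came from the head of the pancreas of C57BL/6 mice of both sexes, 6 to 8 weeks of age. Baseline mice (n = 8, 4 female and 4 male) were not injured. Day 7 mice (n = 8, 4 female and 4 male) and day 14 mice (n = 7, 3 female and 4 male) were studied that many days after injury with caerulein, a cholecystokinin analogue, given at 50 µg/kg in each of 8 injections a day on 2 successive days. Each sample was the whole tissue of 1 mouse, so fewer cells of a type and less RNA per cell cannot be told apart in any value below.

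TGF-β is secreted as a latent complex in which the mature dimer stays bound to its own propeptide, and a latent TGF-β binding protein ties that complex to the extracellular matrix until it is activated. Active TGF-β and activins signal through receptor kinases to SMAD2 and SMAD3, while BMPs signal to SMAD1, SMAD5 and SMAD8, and secreted proteins that bind the ligands set how much of them reaches a receptor. In the pancreas, TGF-β is known for driving stellate cells, the resident fibroblast-like cells, to make collagen after injury.

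Levels are given as CPM, the counts of a gene per 1000000 counts of the library after TMM scaling. Library totals lay between 7059890 and 9567446 counts. Acinar markers checked the labelled tissue: 11 of 11 were found in every mouse, and their summed mean was 360723 CPM in baseline mice, lower at day 7 (209396 CPM) and at day 14 (283589 CPM) (exact permutation adjusted p = 0.00171 and 0.00912 over 22 tests of marker lists). Without TMM scaling they made up 30.7% of the baseline counts. The TMM factors were 0.769 to 1.003 at baseline and 1.05 to 1.40 at day 7, so the size of the day 7 drop depends on the scaling and is smaller as a share of all counts. In the same tissues the summed CPM of 12 fibroblast markers lay between 327 and 603 in baseline mice, 605 and 1106 in day 7 mice and 479 and 715 in day 14 mice, with all 12 above 0 in every mouse (adjusted p = 0.00171 and 0.0248). The macrophage sum was also higher at day 7, at 130 ± 37.6 CPM (SD, n = 8) against 70.8 ± 31.8 (n = 8; adjusted p = 0.02). The ductal sum was 1.37 times the baseline mean at day 7 and 1.19 times at day 14 (adjusted p = 0.0103 for both), and the islet sum 1.99 and 1.62 times (adjusted p = 0.0103 and 0.0349). Several lists other than the fibroblast list were thus higher while the acinar sum was lower. The lists were chosen with earlier results of these data known, and some of their genes, such as *Col3a1* and *C1qa*, were reported as day 7 DEGs by the study. These p-values therefore describe the sums and give no independent support for a change. In 4 libraries the lymphocyte markers stood apart, at 64.1 CPM (baseline mouse 5), 118 and 68.5 CPM (day 7 mice 10 and 15) and 70.8 CPM (day 14 mouse 21), whereas the other 19 mice were at 19.9 CPM or below. Where they bear on a member, values are also given without these 4 libraries.

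A differentially expressed gene (DEG) was one that changed 1.5-fold or more, with an adjusted p no higher than 0.05, in the edgeR fit of the 23 mice. By this rule *Cilp*, *Bmper* and *Fstl1* were DEGs at day 7, each higher than at baseline, and *Cilp* and *Bmper* were still DEGs at day 14. None of the 5 tested genes that encode a ligand or a latent TGF-β binding protein was a DEG at either day. For comparison, 5.13% of the 12195 genes tested were DEGs at day 7 (3.82% higher) and 0.787% at day 14 (0.697% higher). The median log2 fold change of the 8 tested members was 0.24 at day 7 and 0.15 at day 14, beside 0.02 and 0.01 for all genes tested.

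**Figure D1:**
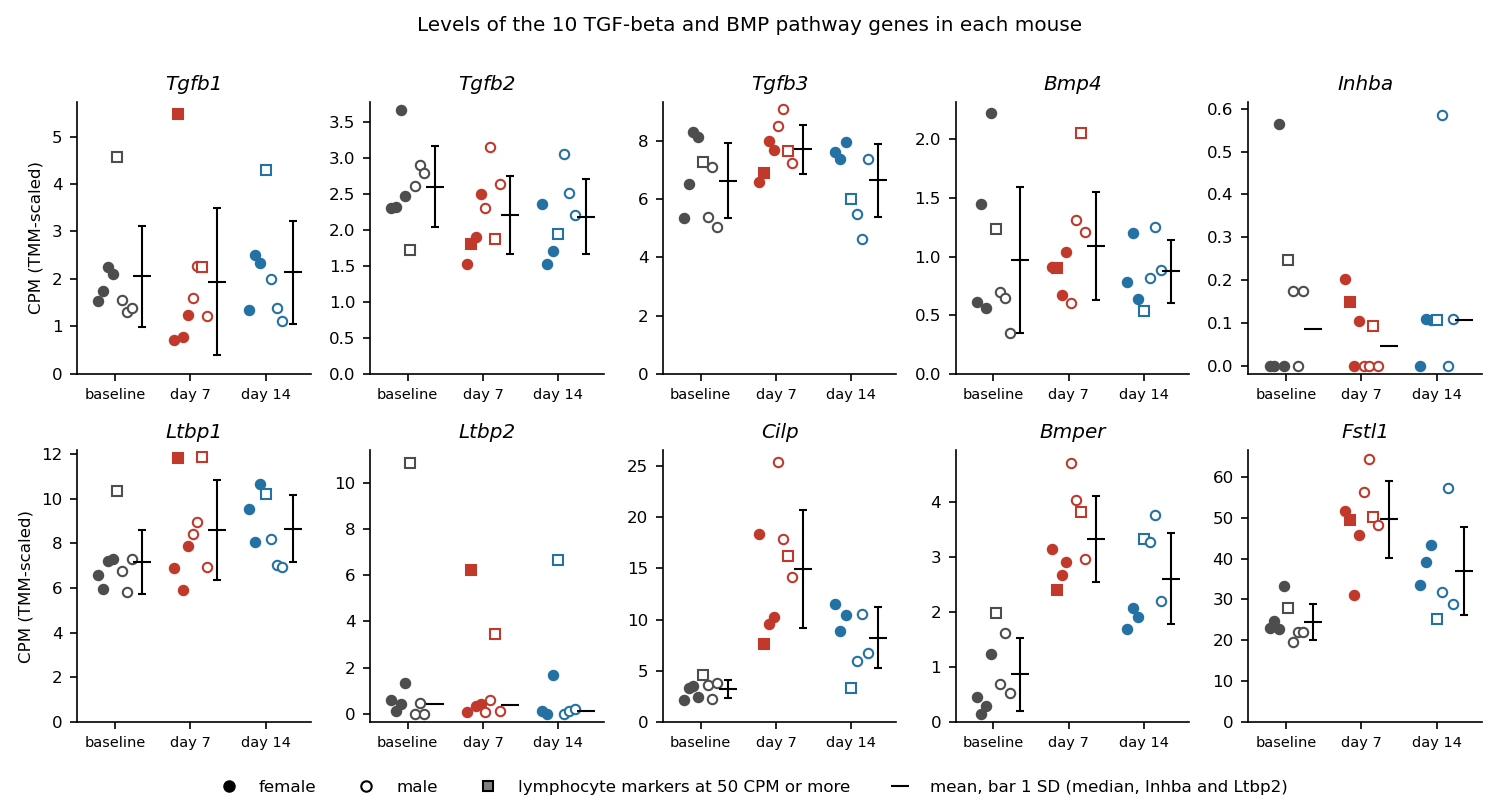
Level of each of the 10 genes in every mouse (y axes, TMM-scaled CPM) at baseline, day 7 and day 14, with filled symbols for females, open symbols for males, squares for the 4 libraries with lymphocyte markers at 50 CPM or more, and bars for the mean ± SD (a dash for the median of *Inhba* and *Ltbp2*). All 8 day 7 mice lie above all 8 baseline mice for *Cilp* and *Bmper*, while the highest *Ltbp2* values are squares at each time point.

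Among the ligands, *Tgfb3* was the most abundant TGF-β transcript. *Tgfb3* lies at chr12:86056745-86079041 of GRCm38 on the minus strand, and its 7 exon blocks share 12.4% of their bases with the opposite-strand genes *Gm37804* and *Gm48008*, whose reads cannot be told apart if the counting ignored strand. *Tgfb3* had 5.05, 6.81 and 8.32 CPM at baseline (lowest, median and highest of 8 mice), 6.59, 7.67 and 9.12 CPM at day 7, and 4.65, 7.40 and 7.98 CPM at day 14. The 3 groups overlapped, with 2 of 8 day 7 mice above every baseline mouse. The log2 fold change was 0.21 at day 7 (standard error 0.12, adjusted p = 0.224) and 0.002 at day 14 (standard error 0.13, adjusted p = 0.997).

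*Tgfb2* (chr1:186622792-186705989, minus strand) encodes the ligand that needs the coreceptor betaglycan for strong binding to its receptors. Its level was 1.73, 2.54 and 3.67 CPM at baseline, 1.52, 2.10 and 3.16 CPM at day 7, and 1.52, 2.21 and 3.05 CPM at day 14. The ranges overlapped almost fully, and neither the day 7 value of -0.24 on the log2 scale (standard error 0.18, adjusted p = 0.365) nor the day 14 value of -0.28 (standard error 0.19, adjusted p = 0.576) passed the test.

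*Tgfb1*, the TGF-β isoform best known from fibrosis and immune regulation, lies at chr7:25687002-25705077 on the plus strand. It was at 1.29, 1.65 and 4.56 CPM at baseline, 0.709, 1.43 and 5.47 CPM at day 7, and 1.10, 1.99 and 4.30 CPM at day 14. The highest mouse of each group was a library with high lymphocyte markers: mouse 5 at baseline (37 counts), mouse 10 at day 7 (73 counts) and mouse 21 at day 14 (40 counts), while the remaining 20 mice had 7 to 26 counts. The fold change was close to 0 on the log2 scale at day 7 (-0.07, standard error 0.38, adjusted p = 0.925) and at day 14 (0.04, standard error 0.40, adjusted p = 0.989). Without the 4 lymphocyte-rich libraries the day 7 value was -0.37 (standard error 0.28, adjusted p = 0.405) and the day 14 value 0.05 (adjusted p = 0.962). With these standard errors, a change of *Tgfb1* of the size of the 1.5-fold threshold was not detectable.

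*Bmp4* (chr14:46383520-46390669, minus strand) encodes a BMP ligand that acts in gut and pancreas development. It was measured from few reads, 2 to 22 counts a mouse, and had a median of 0.670 CPM at baseline, 0.976 at day 7 and 0.820 at day 14. Its range was widest at baseline, from 0.348 to 2.22 CPM, and held every day 7 and day 14 value. The log2 fold change was 0.12 at day 7 (standard error 0.32, adjusted p = 0.827) and -0.20 at day 14 (standard error 0.35, adjusted p = 0.882).

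*Inhba* encodes the βA subunit that forms activin A and is shared with inhibin A. It lies at chr13:16011851-16031621 on the plus strand and was at the limit of detection, with 8 counts summed over the baseline mice, 6 over the day 7 mice and 9 over the day 14 mice. It had 0 counts in 4, 4 and 2 mice of these groups, which allows up to 3 counts in each. No mouse had more than 5 counts, so a difference in *Inhba* was not detectable at this depth.

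Because the 3 TGF-β ligands signal through the same receptors, their transcripts were also compared as shares of their summed counts per kilobase of exon within each mouse, a measure that does not depend on how libraries are scaled. *Tgfb3* made up 69.6% ± 3.50 (SD, n = 8) at baseline, 75.4% ± 7.44 (n = 8) at day 7 and 70.7% ± 7.31 (n = 7) at day 14. *Tgfb2* and *Tgfb3* together held 85.9% ± 5.38 at baseline, 87.9% ± 8.46 at day 7 and 84.8% ± 6.85 at day 14. The differences from baseline were 2.06 percentage points at day 7 (exact two-sided permutation p = 0.544, adjusted p = 0.707) and -1.03 points at day 14 (exact p = 0.707, adjusted p = 0.707). Each group had its lowest share in a lymphocyte-rich library, at 73.0% in mouse 5, 68.4% in mouse 10 and 71.3% in mouse 21. Without mouse 10 the day 7 difference was 4.85 points (exact p = 0.0298), and without all 4 lymphocyte-rich libraries it was 3.91 points (exact p = 0.00816, 13 mice). These are unadjusted values, and no other single mouse, left out, gave a p under 0.05. At day 14 the difference without the 4 libraries was -0.60 points (exact p = 0.697), and without mouse 21 alone it was 1.24 points (exact p = 0.745).

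**Figure D2:**
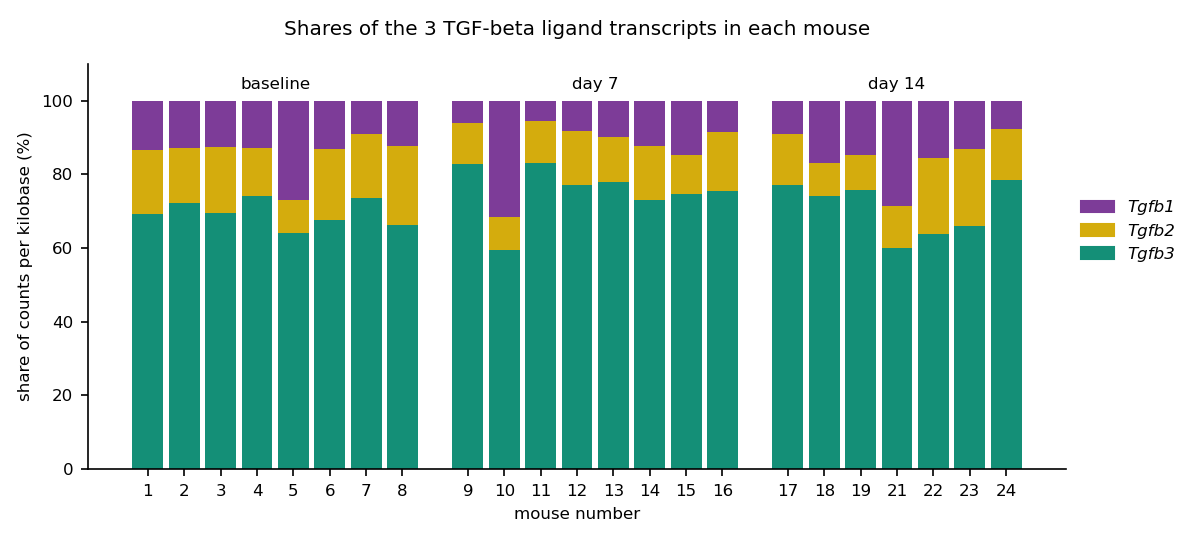
Share of *Tgfb1*, *Tgfb2* and *Tgfb3* among the summed counts per kilobase of the 3 ligands (y axis, percent), with 1 bar per mouse and the mouse number on the x axis. *Tgfb3* takes 59.4% to 83.1% in each mouse, and the *Tgfb1* share is largest in mice 5, 10 and 21, at 27.0%, 31.6% and 28.7%.

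The latent TGF-β binding proteins were next. *Ltbp1*, whose product anchors latent TGF-β in the matrix, spans chr17:75005568-75392512 on the plus strand. It was at 5.81, 6.98 and 10.4 CPM at baseline, 5.90, 8.16 and 11.9 CPM at day 7, and 6.96, 8.20 and 10.6 CPM at day 14. Values above 10 CPM were found in the 4 lymphocyte-rich mice and in day 14 mouse 19, which had the next highest lymphocyte sum. The log2 fold change was 0.26 at day 7 (standard error 0.15, adjusted p = 0.213) and 0.27 at day 14 (standard error 0.15, adjusted p = 0.471). Without the 4 libraries it was 0.16 (adjusted p = 0.417) and 0.32 (adjusted p = 0.19).

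*Ltbp2* encodes a family member that associates with elastic microfibrils and does not bind latent TGF-β. It lies at chr12:84783212-84876532 on the minus strand, and 9.34% of its exon bases are shared with the opposite-strand gene *D030025P21Rik*. Its counts were split between mice and not between time points: 88 in mouse 5 and 0 to 11 in the other baseline mice, 83 in mouse 10, 37 in mouse 15 and 1 to 7 in the other day 7 mice, and 62 in mouse 21, 16 in mouse 19 and 0 to 2 in the other day 14 mice. The lymphocyte-rich libraries thus held the 4 highest *Ltbp2* values of all 23 mice. After removing the mean of each group of sex and time point, log2 CPM of *Ltbp2* followed that of the lymphocyte list with r = 0.92 (Pearson, 23 mice that each give both values from 1 library), while r was 0.84 for *Tgfb1*, 0.83 for *Ltbp1* and between -0.38 and 0.39 for the other 7 members. *Ltbp2*, *Tgfb1* and *Ltbp1* also followed the endothelial list (r = 0.88, 0.87 and 0.85), the pericyte and smooth muscle list (r = 0.84, 0.69 and 0.80), the macrophage list (r = 0.82, 0.78 and 0.76) and the adipocyte list (r = 0.82, 0.77 and 0.72), and *Tgfb1* and *Ltbp1* followed each other with r = 0.85. Over the 19 mice without the 4 lymphocyte-rich libraries, r with the lymphocyte list was lower, at 0.73 for *Ltbp2*, 0.57 for *Tgfb1* and 0.39 for *Ltbp1*. In these 19 mice r of *Ltbp2* with the endothelial, pericyte and smooth muscle, macrophage and adipocyte lists was 0.63, 0.66, 0.59 and 0.62, that of *Tgfb1* was 0.31, 0.17, 0.55 and 0.33, and that of *Ltbp1* was 0.23, 0.28, 0.46 and 0.22. The r between *Tgfb1* and *Ltbp1* was then 0.53, so that each of these values was lower without the 4 libraries. The part of these other cells in the values was not tested.

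The 3 DEGs were the secreted modulators. *Cilp* encodes cartilage intermediate layer protein, a matrix protein that binds TGF-β1 and antagonizes it. *Bmper* encodes a BMP-binding protein with von Willebrand factor type C domains that can inhibit or enhance BMP signalling. The 250 bases before the RefSeq transcription start of these 2 genes, the DEGs of both days, are shown 5′ to 3′ because SMAD proteins contact DNA at the short SMAD box GTCT. Capitals mark GTCT or its reverse complement AGAC in *Cilp* (chr9:65264930-65265179, plus strand, GRCm38.p6) and *Bmper* (chr9:23222826-23223075, plus strand, GRCm38.p6).

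Cilp: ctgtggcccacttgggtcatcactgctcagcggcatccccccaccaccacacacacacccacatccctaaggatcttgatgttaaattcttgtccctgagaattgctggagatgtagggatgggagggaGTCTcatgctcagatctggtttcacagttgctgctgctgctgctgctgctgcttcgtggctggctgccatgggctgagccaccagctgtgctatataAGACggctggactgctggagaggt

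Bmper: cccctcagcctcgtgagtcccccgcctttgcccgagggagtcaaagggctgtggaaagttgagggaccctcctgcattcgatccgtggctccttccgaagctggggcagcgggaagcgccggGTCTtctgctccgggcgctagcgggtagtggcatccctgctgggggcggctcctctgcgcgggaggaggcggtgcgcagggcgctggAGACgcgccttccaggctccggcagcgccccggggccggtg

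Both windows held 2 matches, but so short a motif was found in 82.9% of 32851 RefSeq windows of this length. The longer CAGAC, which contains the box, was in 42.2% of all windows and in neither of these, and among the 9 members with an entry it was found for *Tgfb2*, *Ltbp1* and *Ltbp2*. GGCGCC (9.59% of all windows) and the AP-1 motif TGAGTCA (4.46%) were in no window of the 9 members. GC content was 71.6% in the *Bmper* window and 56.0% in that of *Cilp*. *Fstl1* had 3 GTCT matches and *Tgfb3* had no entry. These matches describe the letters of the windows only.

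*Cilp* lies at chr9:65265180-65280605 on the plus strand, with 11 exon blocks and no exon of another gene on them. Its level was 2.15, 3.43 and 4.56 CPM at baseline (lowest, median and highest), 7.64, 15.2 and 25.4 CPM at day 7, and 3.33, 8.92 and 11.5 CPM at day 14. In counts, the baseline mice had 14 to 37, the day 7 mice 86 to 253 and the day 14 mice 31 to 103. The 8 day 7 mice and 6 of 7 day 14 mice exceeded the highest baseline mouse, the exception being mouse 21, a lymphocyte-rich library at 3.33 CPM. The mean was 4.64 times the baseline mean at day 7 and 2.55 times at day 14. The log2 fold change was 2.19 at day 7 (standard error 0.28, adjusted p = 1.743e-05) and 1.35 at day 14 (standard error 0.30, adjusted p = 0.0213). Without the 4 lymphocyte-rich libraries these were 2.37 (adjusted p = 7.848e-06) and 1.57 (adjusted p = 0.00422), but at day 14 *Cilp* was no longer a DEG without mouse 17 (adjusted p = 0.0522) or mouse 19 (adjusted p = 0.064).

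*Bmper* lies on the same chromosome, at chr9:23223076-23485200 on the plus strand, with 16 exon blocks. It started low, with 0.145, 0.608 and 1.97 CPM at baseline, from 1 to 16 counts a mouse. At day 7 it had 2.40, 3.06 and 4.71 CPM (24 to 47 counts), and at day 14 it had 1.68, 2.21 and 3.77 CPM (15 to 31 counts). Again its ranges at baseline and day 7 were apart, a separation shown by 1.16% of the genes tested at day 7 and by 0.435% at day 14. At day 14, 5 of 7 mice were above every baseline mouse. The log2 fold change was 1.93 at day 7 (standard error 0.26, adjusted p = 9.721e-06) and 1.5 at day 14 (standard error 0.27, adjusted p = 0.00278). *Bmper* kept its call at both days when any single mouse was left out, with log2 fold changes of 1.79 to 2.16 at day 7 and 1.37 to 1.74 at day 14.

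*Fstl1* encodes follistatin-like 1, a secreted glycoprotein of mesenchymal cells that modulates BMP signalling. It lies at chr16:37776873-37836514 on the plus strand and was the most abundant of the 10 genes. Its level was 19.6, 22.9 and 33.3 CPM at baseline, 31.2, 49.8 and 64.3 CPM at day 7, and 25.3, 33.5 and 57.3 CPM at day 14. At day 7, 7 of 8 mice were above every baseline mouse, and at day 14, 4 of 7 were. The log2 fold change was 1.01 at day 7 (standard error 0.16, adjusted p = 0.000173). At day 14 it was 0.59 (standard error 0.17), with an unadjusted p of 0.00204 and an adjusted p of 0.0839, and *Fstl1* was therefore not a DEG. The call depended on the fit: DESeq2 gave an adjusted p of 0.0133 for the same fold change of 0.59, and leaving out baseline mouse 4, day 7 mouse 11 or day 14 mouse 21 gave edgeR adjusted p-values of 0.0426, 0.0446 and 0.0442. In the other 20 of 23 fits without 1 mouse it was not a DEG, with edgeR adjusted p-values up to 0.195. Of 11 alternatives that did not leave out a single mouse, 2 called it, DESeq2 among them.

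**Figure D3:**
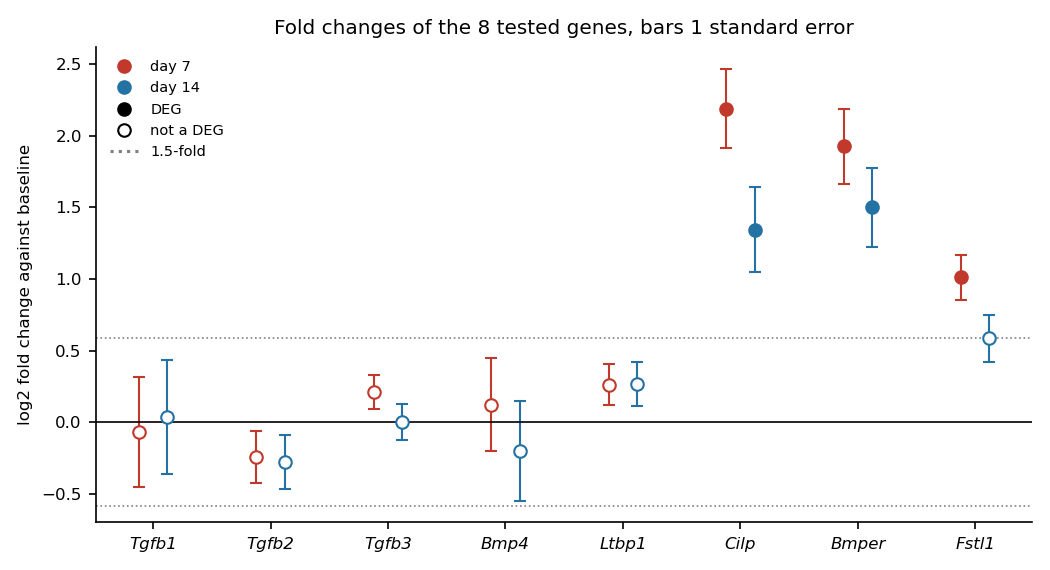
Log2 fold change against baseline (y axis) of the 8 tested genes at day 7 and day 14, with bars of 1 standard error and filled points for DEGs. *Cilp* and *Bmper* lie above the dotted 1.5-fold line at both days and *Fstl1* at day 7, while the ligands and *Ltbp1* lie between the dotted lines.

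The 3 DEGs were set beside the fibroblast markers, which rose in the same mice, as the macrophage, ductal and islet sums did at day 7. The fibroblast sum rests largely on collagens. *Col3a1* alone had a mean of 209 CPM beside 428 for the sum at baseline, and 451 beside 841 at day 7. The ratios below are therefore largely ratios to collagen transcript and are not levels per fibroblast. *Fstl1* kept nearly the same level relative to the fibroblast sum, at 5.83% ± 0.743 (SD, n = 8) of it at baseline, 5.90% ± 0.505 (n = 8) at day 7 and 6.14% ± 1.004 (n = 7) at day 14. *Cilp* was at 0.779% ± 0.232, 1.75% ± 0.526 and 1.37% ± 0.467 of the sum, and *Bmper* at 0.201% ± 0.146, 0.397% ± 0.0556 and 0.448% ± 0.161. The means of *Cilp* and *Bmper* per unit of fibroblast marker were thus higher in value at both days, although the ranges of baseline and day 7 overlapped, with 0.409% to 1.17% against 1.004% to 2.71% for *Cilp* and 0.0347% to 0.468% against 0.315% to 0.503% for *Bmper*. With the log2 fibroblast sum as a covariate beside sex, the day 7 log2 fold change was 0.10 for *Fstl1* (adjusted p = 0.865), 1.19 for *Cilp* (adjusted p = 0.222) and 1.34 for *Bmper* (adjusted p = 0.152). At day 14 it was 0.13 (adjusted p = 0.775), 0.85 (adjusted p = 0.333) and 1.23 (adjusted p = 0.0785). None of the 3 was a DEG in that fit, in which 0.41% of all genes at day 7 and 0.32% at day 14 were DEGs. At day 7 its standard error was 0.44 for *Cilp* and 0.43 for *Bmper*, beside 0.28 and 0.26 without the covariate, and 0.16 for *Fstl1* in both fits. The fibroblast sums of baseline (327 to 603 CPM) and day 7 mice (605 to 1106 CPM) did not overlap, so the fit separates them poorly from time point.

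**Figure D4:**
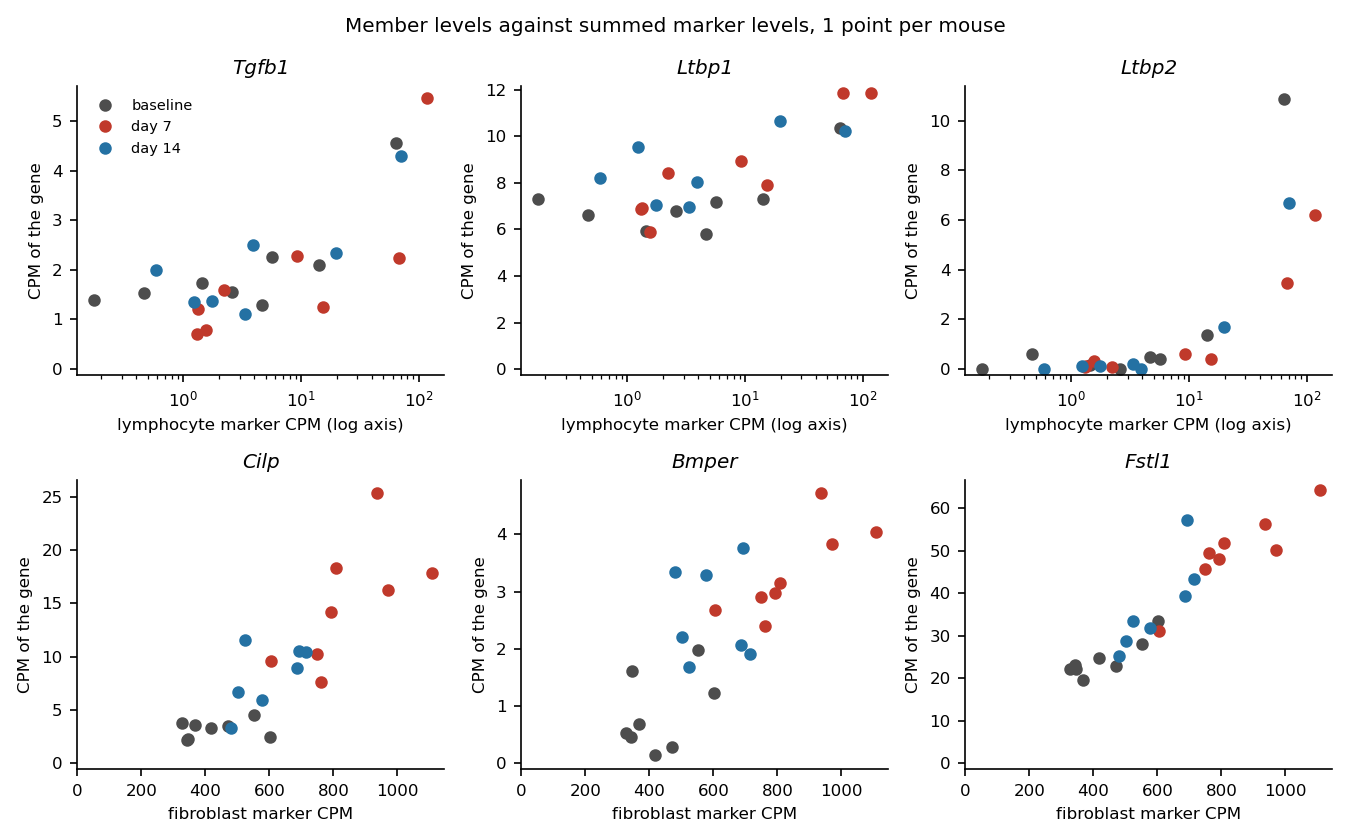
Level of *Tgfb1*, *Ltbp1* and *Ltbp2* against the summed CPM of the lymphocyte markers (upper row, log x axis) and of *Cilp*, *Bmper* and *Fstl1* against that of the fibroblast markers (lower row), with 1 point per mouse and colours for the time points. *Ltbp2* leaves the bottom of its axis in the 4 mice with 64.1 to 118 CPM of lymphocyte markers, and *Fstl1* climbs with the fibroblast sum across all 3 groups.

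Within groups, *Fstl1* also moved with fibroblast genes. With the means of sex and time point removed, the 3 tested genes most like *Fstl1* in log2 CPM over the 23 mice were *Col14a1* (r = 0.87), *Lama4* (r = 0.85) and *Col3a1* (r = 0.85), which encode matrix proteins. For *Cilp* the nearest genes were *Epha1* (r = 0.75), *Usp30* (r = 0.74) and *Twsg1* (r = 0.72), the last encoding a secreted BMP-binding protein. For *Bmper* they were *Bzw2* (r = 0.80), *Rab13* (r = 0.76) and *Pltp* (r = 0.75). Between the 3 modulators, r was 0.50 for *Cilp* with *Fstl1*, 0.48 for *Bmper* with *Fstl1* and -0.05 for *Cilp* with *Bmper*. With the fibroblast list, r was 0.79 for *Fstl1*, 0.60 for *Bmper* and 0.42 for *Cilp*. In this order it was 0.52, 0.60 and -0.06 with the macrophage list and -0.10, -0.20 and 0.37 with the ductal list. With the islet list it was -0.50, -0.46 and 0.19. In the 19 mice without the lymphocyte-rich libraries the fibroblast values were 0.80, 0.54 and 0.32 and the macrophage values 0.73, 0.65 and 0.11. The ductal values were then 0.13, -0.01 and 0.61. These correlations describe libraries that share their depth and cell makeup and were given no test.

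Recovery from day 7 to day 14 was then compared directly. None of the 8 tested members was a DEG between the 2 days in edgeR, beside 0.377% of all genes. *Cilp* and *Fstl1*, 2 of the 8, had an unadjusted p under 0.05, as did 1721 of all 12195 genes. *Cilp* was lower at day 14 in value, with a log2 fold change of -0.85 (standard error 0.25, edgeR adjusted p = 0.0998), and 3 of 7 day 14 mice were below every day 7 mouse. *Fstl1* had -0.43 (standard error 0.16, edgeR adjusted p = 0.209) and *Bmper* -0.43 (standard error 0.24, edgeR adjusted p = 0.431). DESeq2 called 1 member, *Cilp*, with a log2 fold change of -0.84 (adjusted p = 0.0228). It gave no adjusted p for *Bmper*, *Tgfb1*, *Tgfb2*, *Tgfb3* and *Bmp4*, so these were not judged by it. In edgeR the 5 members other than *Cilp*, *Fstl1* and *Bmper* lay between -0.32 (*Bmp4*) and 0.10 (*Tgfb1*).

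The levels of the 3 modulators were higher in value at both days in both sexes. In females, *Cilp* went from 2.87 ± 0.664 CPM (SD, n = 4) at baseline to 11.5 ± 4.72 (n = 4) at day 7 and 10.3 ± 1.32 (n = 3) at day 14, and in males from 3.57 ± 0.961 (n = 4) to 18.4 ± 4.87 (n = 4) and 6.65 ± 2.98 (n = 4). The difference between the sexes in the day 14 change was -0.98 on the log2 scale (standard error 0.50, edgeR adjusted p = 1). *Bmper* was higher in males over all time points by a log2 fold change of 0.71 (standard error 0.21), which missed the adjusted threshold in edgeR (adjusted p = 0.151) and passed it in DESeq2 (0.69, adjusted p = 0.0411). Its ranges in females and males were 0.145 to 1.23 and 0.522 to 1.97 CPM at baseline, 2.40 to 3.14 and 2.97 to 4.71 CPM at day 7, and 1.68 to 2.07 and 2.21 to 3.77 CPM at day 14, so that the sexes were apart in value at day 14 and overlapped before. *Bmp4* moved in opposite directions in value at day 7, from 1.21 to 0.880 CPM in females and from 0.730 to 1.30 CPM in males (difference 1.26 on the log2 scale, standard error 0.65, edgeR adjusted p = 0.928).

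No member was called between the sexes in edgeR (0 of 8, with 1 at an unadjusted p under 0.05 and 1 called by DESeq2), beside 0.23% of all genes. Of all 12195 genes, 1097 had an unadjusted p under 0.05 between the sexes in edgeR. The change at day 7 or at day 14 differed between the sexes for 0 of 9 members tested in that fit, with 0 at an unadjusted p under 0.05 in edgeR. DESeq2 called 0 at either day, with 1 at an unadjusted p under 0.05 at day 14, beside 327 of all 12933 genes. Among all 12933 genes, 0.00773% had such a difference at day 7 and 0.0% at day 14.

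Levels of different genes were ordered per kilobase of exon. *Fstl1* led in every group, with 4.98 ± 0.879, 10.1 ± 1.91 and 7.54 ± 2.19 CPM per kilobase at baseline, day 7 and day 14, and was above the next gene in each of the 23 mice. *Tgfb3* was second at baseline, at 1.96 ± 0.378 CPM per kilobase, and was above *Cilp* (0.758 ± 0.201) in 8 of 8 mice. At day 7 *Cilp* (3.51 ± 1.36) was above *Tgfb3* (2.28 ± 0.246) in 6 of 8 mice, and at day 14 the genes did not differ beyond their spread, with *Tgfb3* at 1.97 ± 0.373 and *Cilp* at 1.93 ± 0.699. By its mean, *Bmper* moved from the ninth place (0.179 ± 0.138) to the fifth at day 7 (0.690 ± 0.162) and day 14 (0.540 ± 0.171), near *Ltbp1* (0.803 ± 0.208) at day 7. Its ninth place rested on 1 library. The baseline mean of *Ltbp2* (0.212 ± 0.453) was higher, but *Ltbp2* was above *Bmper* in only 1 of 8 mice, the lymphocyte-rich mouse 5. *Tgfb1*, *Tgfb2* and *Bmp4* lay between 0.377 and 0.484 CPM per kilobase in each group and did not differ beyond their spread, and *Inhba* was the last, at 0.0108 to 0.0228.

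The other genes of the pathway gave the setting of these changes. Of 94 listed genes, 90 were in the files and 70 had enough counts for testing. At day 7, 9 of them were higher and 4 lower than at baseline (18.6% of the 70). Beside the 70 and each list below, DEGs made up 5.13% of all genes at day 7 (3.82% higher) and 0.787% at day 14. None of the 70 was a DEG at day 14 by edgeR or DESeq2. In edgeR, 13 of them had an unadjusted p under 0.05 at day 14, beside 1618 of all 12195 genes. The median log2 fold change of the 70 was 0.06 at day 7 and 0.03 at day 14, beside 0.02 and 0.01 for all genes tested. The count at day 7 was 8 without mouse 14 and 9 without the 4 lymphocyte-rich libraries. In 23 fits that each lacked 1 mouse, 7 of the 13 genes kept their call throughout, namely *Fbn1*, *Fst*, *Eng*, *Dcn*, *Postn*, *Col1a2* and *Col3a1*. *Ltbp3*, *Bmp1* and *Furin* kept it in 20, 20 and 22 fits, and fell just short of the 1.5-fold threshold in the others. Under total count scaling the median log2 fold change of all genes was 0.48 at day 7 and 0.22 at day 14, in place of 0.02 and 0.01, and all 13 kept their direction under it while the 4 lower genes, at -0.15 to -0.42, were no longer DEGs. With the log2 fibroblast sum as a covariate, 1 of the 13 (*Ltbp3*, -0.59) was still a DEG and 7 kept their direction. *Col1a1*, *Col1a2* and *Col3a1* are themselves part of that sum, so this fit cannot judge them. *Col3a1* alone had a mean of 451 CPM at day 7, beside 841 CPM for the whole sum.

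In the group of latency and activation, 2 of 12 tested genes were higher and 2 lower at day 7. *Fbn1*, whose product fibrillin-1 forms the microfibrils that hold latent complexes, went from 70.5 ± 8.88 CPM to 120 ± 21.9 (log2 fold change 0.77, adjusted p = 6.176e-05), and *Bmp1*, a procollagen C-proteinase, from 6.15 ± 1.77 to 9.61 ± 0.950 CPM (0.64, adjusted p = 0.00116). In the opposite direction, *Ltbp3*, a latent TGF-β binding protein, fell from 39.7 ± 2.89 to 26.2 ± 1.81 CPM (-0.60, adjusted p = 7.309e-07), and *Furin*, the protease that cleaves TGF-β propeptides, from 72.9 ± 5.03 to 47.4 ± 6.60 CPM (-0.62, adjusted p = 2.088e-06). At day 7 the ranges were 24.1 to 29.0 CPM for *Ltbp3* and 38.8 to 56.7 CPM for *Furin*. At baseline they were 36.5 to 43.7 and 67.4 to 79.8 CPM. The share of all genes separated downward in this way was not computed. At day 14 *Ltbp3* was at -0.31 (adjusted p = 0.0194), under the 1.5-fold threshold.

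Of 12 tested antagonists and modulators beyond the members, 2 were higher and 1 lower at day 7. *Fst*, which encodes the activin-binding follistatin, rose from 0.546 ± 0.251 to 1.42 ± 0.515 CPM (log2 fold change 1.32, adjusted p = 0.00342), and *Dcn*, which encodes the TGF-β-binding proteoglycan decorin, from 100.1 ± 25.0 to 171 ± 31.0 CPM (0.78, adjusted p = 0.000481). *Eng*, which encodes the endothelial coreceptor endoglin, fell from 10.04 ± 2.23 to 5.52 ± 1.09 CPM (-0.87, adjusted p = 0.000114). Its ranges overlapped, at 6.25 to 13.8 CPM at baseline and 3.68 to 7.40 CPM at day 7. The endothelial markers summed to 93.3 ± 18.3 CPM at baseline and 80.0 ± 19.9 at day 7 (exact permutation adjusted p = 0.385), and their part in the *Eng* value was not tested. *Eng* was also the only one of the 70 to be a DEG between day 7 and day 14 in edgeR, higher at day 14 by 0.62 on the log2 scale (adjusted p = 0.0268), beside 2 of the 70 by DESeq2. That call was lost when any of mice 11, 14, 15, 17, 18 or 22 was left out.

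Among 12 receptors, *Tgfbr2*, the type II receptor of TGF-β, rose by 0.74 on the log2 scale (adjusted p = 0.0373) and *Bmpr1b*, a type I receptor of BMPs, fell by 0.85 (adjusted p = 0.0426). Both calls were near the threshold, since *Tgfbr2* was a DEG in 13 and *Bmpr1b* in 12 of the 23 fits that left out a single mouse, with adjusted p-values up to 0.0948 and 0.1. Of 13 tested TGF-β targets, 4 were higher and none lower: *Postn* (1.72, adjusted p = 0.00303), *Col3a1* (1.10, adjusted p = 0.000153), *Col1a2* (0.85, adjusted p = 0.000648) and *Col1a1* (0.70, adjusted p = 0.0325), the last a DEG in 14 of the 23 fits without 1 mouse. These encode periostin and fibrillar collagens, and the 3 collagens are also among the 12 fibroblast markers. The median log2 fold change of the TGF-β targets was 0.58 at day 7 and 0.19 at day 14, beside 0.02 and 0.01 for all genes tested. Of the 13, 11 were above 0 at day 7 and 10 at day 14, beside 6547 and 6290 of all 12195 genes tested. The SMAD inhibitor gene *Smad7* was at -0.28 (adjusted p = 0.1715) and -0.49 (adjusted p = 0.097) at these days. *Cdkn1a* was at -0.33 (adjusted p = 0.3625) and -0.46 (adjusted p = 0.4536), and *Skil* at 0.21 (adjusted p = 0.0824) and -0.17 (adjusted p = 0.3929).

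The remaining lists held no DEG at day 7 in edgeR or DESeq2. For comparison, 3925 of all 12195 genes tested had an unadjusted p under 0.05 at day 7 in edgeR. Among 5 other ligands, 2 had an unadjusted p under 0.05, and the smallest p belonged to *Bmp7* (log2 fold change -0.31, adjusted p = 0.024), which encodes a BMP ligand. Among 15 SMADs and their regulators, 4 had an unadjusted p under 0.05, and the smallest belonged to *Ski*, a SMAD corepressor (-0.32, adjusted p = 0.000241). Among 7 BMP targets, 2 had an unadjusted p under 0.05, and the smallest belonged to *Id2*, which encodes an inhibitor of DNA binding (0.52, adjusted p = 0.00914). These 3 passed the adjusted p but not the 1.5-fold threshold.

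**Figure D5:**
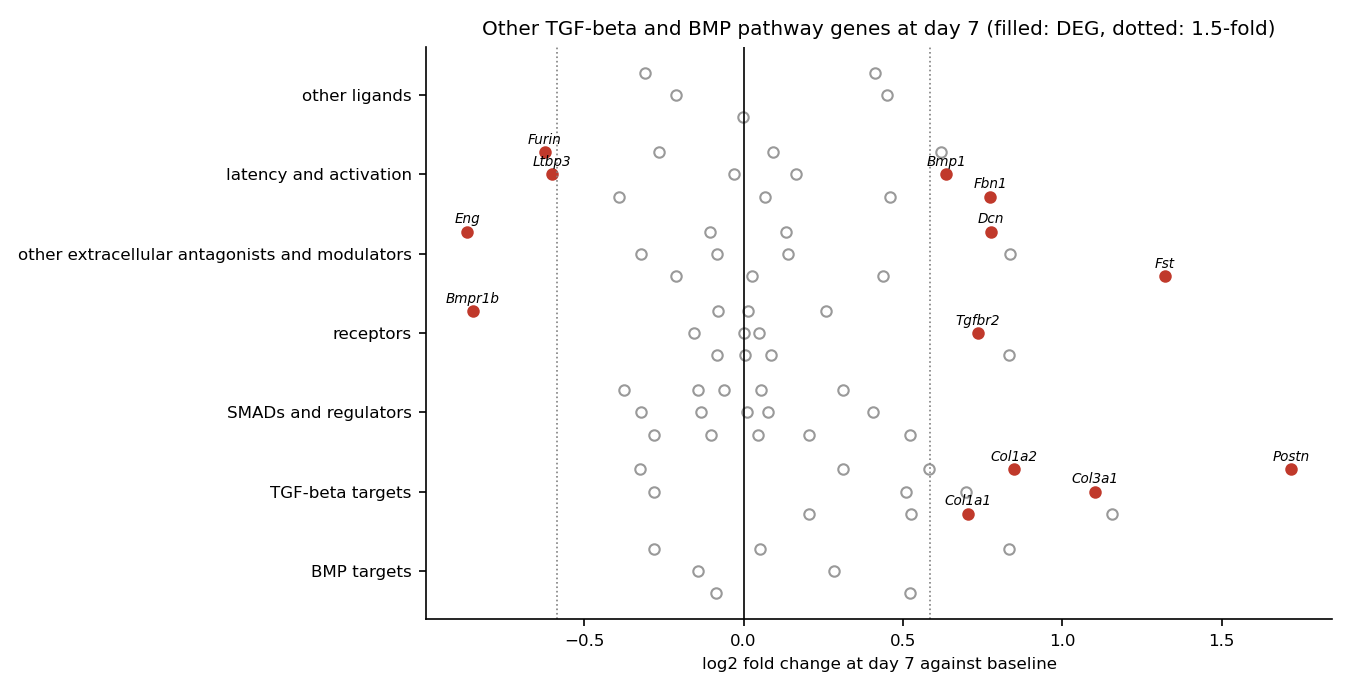
Log2 fold change at day 7 against baseline (x axis) of the 70 tested pathway genes other than the members, in 7 lists (rows), with filled and named points for DEGs and dotted lines at 1.5-fold; a gene on 2 lists is drawn on both. The points furthest to the right are *Postn* at 1.72 and *Fst* at 1.32, and those furthest to the left *Eng* at -0.87 and *Bmpr1b* at -0.85.

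Scaling and covariates bore on several of these values. With total count scaling *Tgfb3* and *Ltbp1* also became DEGs at day 7, at 0.66 and 0.73, values to be read against the median of 0.48 of all genes under that scaling, in which 3727 genes were DEGs at day 7 (99.4% of them higher), in place of 626 (74.4% higher); without the 20 most abundant genes in the totals they numbered 741 (85.7% higher). When the study's mapping rate per mouse was added to sex in the fit, only *Bmper* stayed a DEG at day 7 and no member did at day 14, while the DEGs over all genes numbered 105 and 5. The fold changes of the 3 modulators kept their direction and most of their size while their standard errors were larger. At day 7 *Fstl1* was at 1.03 on the log2 scale (standard error 0.28, adjusted p = 0.0697), *Cilp* at 1.81 (standard error 0.45, adjusted p = 0.0532) and *Bmper* at 1.81 (standard error 0.40, adjusted p = 0.0207). At day 14 *Bmper* was at 1.41 (standard error 0.35, adjusted p = 0.146), *Cilp* at 1.04 (standard error 0.41, adjusted p = 0.451) and *Fstl1* at 0.60 (standard error 0.24, adjusted p = 0.453).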

How the data were processed

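Total RNA from the pancreas head of 23 mice was sequenced as paired reads after ribosomal RNA depletion. Per the labels and the study's methods, the authors checked reads with FastQC, trimmed them with Trim Galore and cutadapt, aligned them to mm10 with STAR 2.5.2a and deposited counts per gene symbol from featureCounts. The annotation and the strand setting of the counting were not given in the sources used here. Mouse 20 was not analysed here.

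The test was the quasi-likelihood F test of edgeR 4.0.16 (R 4.3.3), with TMM scaling, on 12195 genes that filterByExpr kept. All 23 mice entered 1 model of time point and sex. A fit of 6 groups of sex and time point gave the interaction (12933 genes). P-values were two-sided and Benjamini-Hochberg adjusted over all genes tested, and these are the adjusted p-values given, except for marker lists and shares, which had exact permutation tests. Standard errors were derived from the fold change and F, and so restate the test. Log2 CPM used a prior count of 2. Floors of 3 counts, 3.14e-05% to 4.25e-05% of a library, cover counting error only. The scripts were tested on simulated data.

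The members, pathway lists and marker lists were chosen with earlier results of these data known. Named pathway genes were all DEGs, up to 4 a list by adjusted p, or the gene with the smallest p in a list with none, and the 3 genes most like each modulator that was a DEG. *Smad7*, *Cdkn1a* and *Skil* were named as the TGF-β targets below 0 at day 7 or day 14. Positions and exon lengths came from GENCODE vM21 (GRCm38, the build of mm10), and promoter windows from RefSeq. DESeq2 1.42.0, other scalings, filters, covariates and sets of mice were tried as alternatives. The study's mapping rates were used only as a covariate. The fits and correlations without the 4 lymphocyte-rich libraries were chosen after seeing the data.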

Additional observations from a re-analysis of the deposited data

Results flagged for a closer look

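In 66 groups of 7 or 8 mice (10 members, the summed share of *Tgfb2* and *Tgfb3*, and 11 marker lists), the highest and the lowest mouse were set against Dixon's 95% critical values, and 19 groups held a mouse far from the others. Chance alone would give about 1 in 20 groups.

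Baseline mouse 5 was the highest of its group for *Tgfb1* (4.56 CPM, next 2.26), *Ltbp1* (10.4 CPM, next 7.31) and *Ltbp2* (10.8 CPM, next 1.36), and the lowest for the share of *Tgfb2* and *Tgfb3* (73.0%, next 86.7%). It was also the highest for the summed markers of pericytes and smooth muscle (88.3 CPM), endothelium (138 CPM), lymphocytes (64.1 CPM) and Schwann and neural cells (4.93 CPM).

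Day 7 mouse 10 stood apart for *Tgfb1* (5.47 CPM, next 2.28), for the share of *Tgfb2* and *Tgfb3* (68.4%, next 85.3%) and for adipocyte markers (203 CPM). Day 7 mouse 14 was the highest for mesothelial markers (27.7 CPM).

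Day 14 mouse 21 stood apart for *Ltbp2* (6.66 CPM, next 1.70), for the share of *Tgfb2* and *Tgfb3* (71.3%, next 83.2%), for lymphocyte markers (70.8 CPM) and for adipocyte markers (104 CPM). Day 14 mouse 19 was the highest for pericyte and smooth muscle markers (114 CPM).

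*Inhba* was highest in baseline mouse 3 (0.564 CPM, 4 counts) and in day 14 mouse 22 (0.586 CPM, 5 counts), at counts too low to tell from counting error.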

How the results depend on the processing

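In the alternatives other than leaving out 1 mouse, 239 values kept their direction and side of the threshold, 24 turned sign, 16 counts moved by over 1.5 times, 12 values lost the call and 6 gained it. DEGs over all genes numbered 626 at day 7 and 96 at day 14, but 3727 and 449 with total count scaling, 105 and 5 with the mapping rate, 50 and 39 with the fibroblast list and 348 and 66 with at least 10 counts in every mouse. With total count scaling, 5 members were DEGs at day 7 and 3 between the days, 28 pathway genes at day 7 and 7 at day 14, and the sign turned for *Tgfb1* (0.42) and *Tgfb2* (0.21) at day 7 and for the endothelial (0.25), mesothelial (0.38) and day 14 adipocyte lists (0.0385). Without the 20 most abundant genes, *Tgfb1* was at 0.015 at day 7. With the mapping rate as covariate, 1 member and 1 pathway gene were DEGs at day 7 and 0 members at day 14, although at day 7 *Fstl1* was at 1.03, *Cilp* at 1.81 and *Bmper* at 1.81 with larger standard errors, and the sign turned for *Tgfb2* (0.31), *Bmp4* (-0.17) and *Ltbp1* (-0.28) at day 7 and *Tgfb1* (-0.67), *Tgfb2* (0.16), *Tgfb3* (-0.13) and *Ltbp1* (-0.15) at day 14. With the fibroblast list as covariate, 0 members were DEGs at either day and 3 and 2 pathway genes (at day 7, 1 of the 13 otherwise called, of which 7 kept their direction), and the sign turned for *Tgfb3* (-0.15), *Bmp4* (-1.28) and *Ltbp1* (-0.13) at day 7 and *Tgfb1* (-0.26) and *Tgfb3* (-0.17) at day 14. The fibroblast list itself holds *Col1a1*, *Col1a2* and *Col3a1* of the 13. *Tgfb3* at day 14, at 0.002, was also below 0 with DESeq2 size factors (-0.0018), no covariate (-0.0040) and DESeq2 (-0.0047). DESeq2 called 1 member between the days and 1 between the sexes. At least 10 counts in every mouse left 5 members to test and 1 DEG at day 14. Among pathway genes at day 14, 1 was called without a fold threshold and 1 in a fit of only the mice compared. Mean log2 CPM turned the mesothelial (0.0189) and adipocyte (-0.10) lists at day 7. Without the lymphocyte-rich libraries, *Bmp4* was at -0.0014 and the share of *Tgfb2* and *Tgfb3* at 3.91 points at day 7. The cause of these shifts was not tested.

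Leaving out each mouse in turn gave 1 to 3 member DEGs at day 14, 8 to 15 pathway DEGs at day 7 and 0 to 1 at day 14, and share differences of 0.22 to 4.85 points at day 7 and -2.87 to 1.24 at day 14. Log2 fold changes crossed 0 for *Tgfb1* (-0.59 to 0.24) and *Bmp4* (-0.0756 to 0.43) at day 7, *Tgfb1* (-0.24 to 0.36), *Tgfb3* (-0.0445 to 0.0635) and *Bmp4* (-0.33 to 0.10) at day 14, and for the pericyte (-0.0609 to 0.42), mesothelial (-0.20 to 0.16) and adipocyte (-0.0631 to 0.79) lists at day 7 and the lymphocyte (-1.19 to 1.79) and adipocyte (-0.61 to 0.14) lists at day 14. No paired analysis was possible because each mouse number belongs to 1 mouse of 1 group. Few counts limited *Inhba* and *Bmp4*. *Tgfb1* varied more between mice than *Tgfb2* (biological coefficient of variation 48.8% against 16.7%), at a like number of counts. *Inhba* and *Ltbp2* were untested between time points.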
